A study of Caenorhabditis elegans with 6 samples.

Results

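The 9 genes described here make, package and retrieve the monoamine transmitters of Caenorhabditis elegans: dopamine, serotonin, tyramine and octopamine. They were chosen by name, as cat-1, cat-2, cat-4, tph-1, tdc-1, tbh-1, bas-1, mod-5 and dat-1, and each was found by its WormBase identifier among the 46911 genes of the count files. RNA of whole animals at the fourth larval stage (L4) was sequenced in 3 libraries of strain VC295, which carries unc-30(ok613) on chromosome IV, and in 3 libraries of the wild-type strain N2. Synchronised broods of both strains came from egg lays of 3 hours by about 40 gravid adults per 10 cm plate and grew on E. coli OP50 at 20 °C, with no agent applied. The genotype label gives unc-30(ok613) for every sample, so groups follow the strain label. unc-30 encodes a homeodomain factor known for specifying GABAergic D-type motor neurons, which are not among the monoamine neurons. The targeted gene had 20, 24 and 17 counts in the mutant libraries and 23, 26 and 17 in wild type, and since no source used here gives the deleted stretch, these counts do not check the labels.

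Monoamines are made from tyrosine and tryptophan by a small set of enzymes, found mostly in a few neurons. The hydroxylases CAT-2 and TPH-1 start dopamine and serotonin synthesis with a biopterin cofactor whose synthesis CAT-4 begins, and the decarboxylase BAS-1 completes both amines. TDC-1 decarboxylates tyrosine to tyramine, and TBH-1 hydroxylates tyramine to octopamine. CAT-1 loads all of these amines into vesicles, while DAT-1 and MOD-5 take dopamine and serotonin back up from outside the cell. In this animal the amines are known for their roles in locomotion, feeding, egg laying and the response to food. tdc-1 and tbh-1 are also known to be expressed in the gonadal sheath, and cat-4 in the epidermis, so whole-animal levels of these 3 genes need not come from neurons.

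The libraries held 17318736 to 26377332 counts, of which 1459 to 8531 fell on the 9 genes. Detected genes numbered 17088 to 17525 in the mutant libraries and 18373 to 19477 in N2. Ribosomal RNA genes took 7.65% to 12.7% of mutant counts and 0.394% to 8.20% of N2 counts. Other mitochondrial genes took 1.72% to 2.43% and 0.862% to 1.28%. Apart from a fit without ribosomal RNA genes, given below, the part of these differences in the scaling was not tested. Levels are given as CPM, the counts of a gene scaled to a common library size, after normalization by trimmed mean of M-values (TMM), and folds and adjusted p-values come from edgeR's quasi-likelihood test over 14506 genes. TMM scaling differed strongly from scaling by library totals: with totals the all-gene median of the log2 fold change shifted by -1.01, so each direction below is relative to the TMM reference. With ribosomal RNA genes left out, the median under TMM was -0.04, beside -0.10 with them. Calls among the 9 genes were the same with and without them, 2 higher and 0 lower. Every marker gene fixed for neurons, body wall muscle, pharyngeal muscle, intestine, epidermis, germline and gonadal sheath that had a match was measured above the expression filter. In whole animals, fewer cells of a type and less RNA per cell cannot be told apart.

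Of the 9 genes, 8 passed the filter on low counts, and tph-1 did not. Among the 8, cat-1 and mod-5 rose in the mutant and none fell, with adjusted p under 0.05 as the threshold. Of all tested genes 17.1% were called higher and 20.9% lower, so these counts are near the background. None of the 8 was called lower in this main edgeR fit or by DESeq2. However, 1 (cat-4) was lower at an unadjusted edgeR p under 0.05, and limma-voom called 1 (tbh-1) lower. Under TMM scaling, mutant and wild-type levels did not overlap for 4 genes, all higher in the mutant (cat-1, mod-5, bas-1 and dat-1). Of all genes 24.4% lay wholly above and 28.2% wholly below. Scaled by totals these 4 overlapped, whereas cat-4 and tbh-1 lay wholly lower in the mutant. The share of all genes without overlap was not computed under totals. With scaling by totals, 0 of the 8 were called higher and 2 lower (cat-4 and tbh-1), beside 3.43% and 56.4% of all genes.

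**Figure D1:**
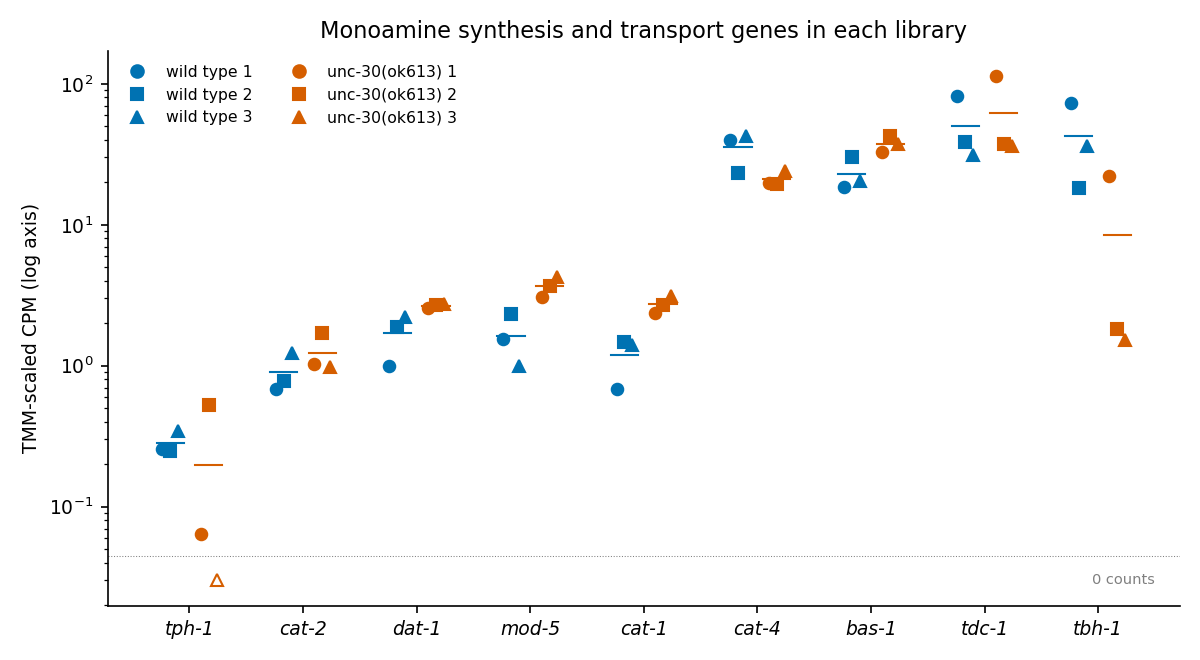
TMM-scaled CPM of each gene (log axis) in the 3 wild-type (blue) and 3 mutant (orange) libraries, with symbols for the replicate number and lines for group means. The open symbol marks the mutant library with 0 counts of tph-1. cat-1 and mod-5 lie wholly higher in the mutant, and tbh-1 spans 1.51 to 73.1 CPM.

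Neither gene of the dopamine pair passed the test. cat-2, the tyrosine hydroxylase gene that marks dopamine neurons (WBGene00000296; chromosome II, 257819 to 261074, plus strand, WBcel235), stood at 1.03, 1.70 and 0.984 CPM in the mutant libraries (replicates 1 to 3, an order kept below) and at 0.688, 0.781 and 1.22 CPM in N2. The groups overlapped, and the log2 fold change was 0.47 ± 0.43 (SE; edgeR adjusted p = 0.410). These levels rest on 13 to 39 counts a library. dat-1, the dopamine reuptake transporter gene (WBGene00000934; chromosome III, 9242975 to 9246802, plus strand), was at 2.57, 2.69 and 2.73 CPM in the mutant and at 0.994, 1.89 and 2.22 CPM in wild type. All 3 mutant libraries exceeded all 3 wild-type libraries, but the log2 fold change of 0.65 ± 0.39 (SE) did not pass (edgeR adjusted p = 0.213). With scaling by totals the estimates of cat-2 and dat-1 turned to -0.53 and -0.35, again without passing, and the groups overlapped for both. Within each library dat-1 counts exceeded cat-2 counts, by 0.66 to 1.43 on the log2 scale in the mutant libraries and by 0.52 to 1.25 in N2.

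The serotonin genes were measured with unequal precision. tph-1, the tryptophan hydroxylase gene that marks serotonin neurons (WBGene00006600; chromosome II, 7549335 to 7551983, plus strand), had only 1, 9 and 0 counts in the mutant libraries against 10, 6 and 11 in N2. A count of 0 in mutant replicate 3 allows up to 0.227 CPM, the level of 3 counts there, which is just under the lowest wild-type value of 0.247 CPM. Over the groups, 10 counts against 27 give a scaled ratio of wild type to mutant of 1.30 (exact 95% interval 0.608 to 3.00), or 2.63 (1.23 to 6.09) with scaling by totals. These intervals cover counting error only. ZK1290.10 on the opposite strand, at 12 to 35 counts a library, shares 43 exonic bases with it. A difference in tph-1 was therefore not detectable at this depth under TMM scaling.

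mod-5, the serotonin reuptake transporter gene (WBGene00003387; chromosome I, 3034716 to 3047794, minus strand), was at 3.09, 3.68 and 4.24 CPM in the mutant and at 1.56, 2.34 and 1.0 CPM in wild type. No wild-type value reached the mutant range. It rose 2.25-fold (log2 fold change 1.17 ± 0.39, SE; edgeR adjusted p = 0.0447), close to the threshold. Leaving out mutant library 2, mutant library 3, N2 library 1 or N2 library 3 ended the call, with estimates of 1.22, 1.11, 1.14 and 0.91 on the log2 scale (edgeR adjusted p = 0.111, 0.136, 0.0941 and 0.110). Scaled by totals it was 0.14 (edgeR adjusted p = 0.756), and the groups overlapped. mod-5 shares 52 exonic bases with the opposite-strand gene Y54E10BR.2, which had 589, 504 and 341 counts in the mutant and 1091, 405 and 595 in N2, beside 32 to 63 for mod-5.

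cat-1, the vesicular monoamine transporter gene that all these neurons share (WBGene00000295; chromosome X, 5705690 to 5710737, minus strand), behaved much like mod-5. Its levels were 2.38, 2.69 and 3.10 CPM in the mutant and 0.688, 1.48 and 1.41 CPM in wild type, with no overlap. It rose 2.29-fold (log2 fold change 1.197 ± 0.40, SE; edgeR adjusted p = 0.0453). Here too the call ended on leaving out any of the same 4 libraries, with estimates of 1.27, 1.16, 0.91 and 1.34 (edgeR adjusted p = 0.102, 0.125, 0.107 and 0.0720). Scaled by totals it was 0.19 (edgeR adjusted p = 0.680), and the groups overlapped. The call of cat-1 also ended with upper-quartile factors and without an expression filter (edgeR adjusted p = 0.0539 and 0.0515). With pan-neuronal genes held constant it ended as well (edgeR adjusted p = 0.0523). mod-5 stayed called in these 3 fits, with edgeR adjusted p of 0.0476, 0.0485 and 0.0435.

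cat-4 and bas-1, which serve both the dopamine and the serotonin branch, had estimates of opposite sign. cat-4, the GTP cyclohydrolase gene of biopterin synthesis (WBGene00000298; chromosome V, 10564880 to 10566464, plus strand), was at 19.7, 19.5 and 24.2 CPM in the mutant and at 40.0, 23.4 and 42.6 CPM in wild type. The groups overlapped only through wild type replicate 2 and mutant replicate 3. Its log2 fold change of -0.74 ± 0.28 (SE) did not pass (edgeR adjusted p = 0.0669), and was -0.96 (edgeR adjusted p = 0.0161) without wild type replicate 2. Leaving out any other library gave -0.59 to -0.78 without passing (edgeR adjusted p = 0.132 to 0.225). Under scaling by totals cat-4 was called lower, at -1.77 (edgeR adjusted p = 0.00184), without overlap of the groups. cat-4 shares 63 exonic bases with the opposite-strand gene vps-54, and no source used here states the strand setting of the counting, so reads of such partners may be mixed.

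bas-1, the aromatic amino acid decarboxylase gene (WBGene00000239; chromosome III, 5612274 to 5614660, plus strand), was at 33.1, 42.3 and 37.3 CPM in the mutant and at 18.5, 30.2 and 20.3 CPM in wild type. The mutant libraries again all exceeded the wild-type ones. The log2 fold change of 0.71 ± 0.26 (SE) did not pass (edgeR adjusted p = 0.0603), but it passed without mutant replicate 1 (0.85, edgeR adjusted p = 0.0491) or without wild type replicate 2 (0.96, edgeR adjusted p = 0.0189). DESeq2 (0.76, adjusted p = 0.0415) and limma-voom (0.75, adjusted p = 0.0461) also called it higher. Leaving out any library other than those gave 0.58 to 0.77 in edgeR without passing (edgeR adjusted p = 0.135 to 0.174). Scaling by totals turned its log2 fold change to -0.31, and the groups then overlapped. Its relative basl-1 lies 287 bases downstream on the same strand and had a log2 fold change of 0.27, and reads of similar copies can be shared between such neighbours.

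The genes of the tyramine and octopamine enzymes differed widely between libraries of the same genotype. tdc-1, the tyrosine decarboxylase gene (WBGene00006562; chromosome II, 8270597 to 8273615, plus strand), was at 114, 37.4 and 36.4 CPM in the mutant libraries and at 81.8, 38.3 and 31.4 CPM in N2. Library 1 of each genotype stood above the other 4, and the groups overlapped. The log2 fold change was 0.31 ± 0.55 (SE; edgeR adjusted p = 0.683), and it turned to -0.38 without mutant replicate 1 and to -0.68 with scaling by totals. tdc-1 shares 73 exonic bases with gei-14 on the opposite strand, which had 110, 45 and 44 counts in the mutant and 1429, 313 and 745 in N2.

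tbh-1, the tyramine beta-hydroxylase gene (WBGene00006541; chromosome X, 15500256 to 15504895, minus strand), was at 22.1, 1.81 and 1.51 CPM in the mutant and at 73.1, 18.2 and 36.2 CPM in wild type. Mutant replicates 2 and 3 lay far below every wild-type library, while mutant replicate 1 lay just above wild type replicate 2. The raw counts were 343, 31 and 20 against 2866, 442 and 1154. The log2 fold change of -2.32 ± 1.08 (SE) did not pass (edgeR adjusted p = 0.129). Without mutant replicate 1 it was -4.59 (edgeR adjusted p = 0.00343), and with scaling by totals -3.28 (edgeR adjusted p = 0.0416). Leaving out any other library gave -1.68 to -2.68 without passing (edgeR adjusted p = 0.113 to 0.346). Scaled by totals the groups did not overlap. H13N06.7, which shares 372 exonic bases with tbh-1 on the opposite strand, had at most 1 count in any library, and suox-1 shares 26.

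**Figure D2:**
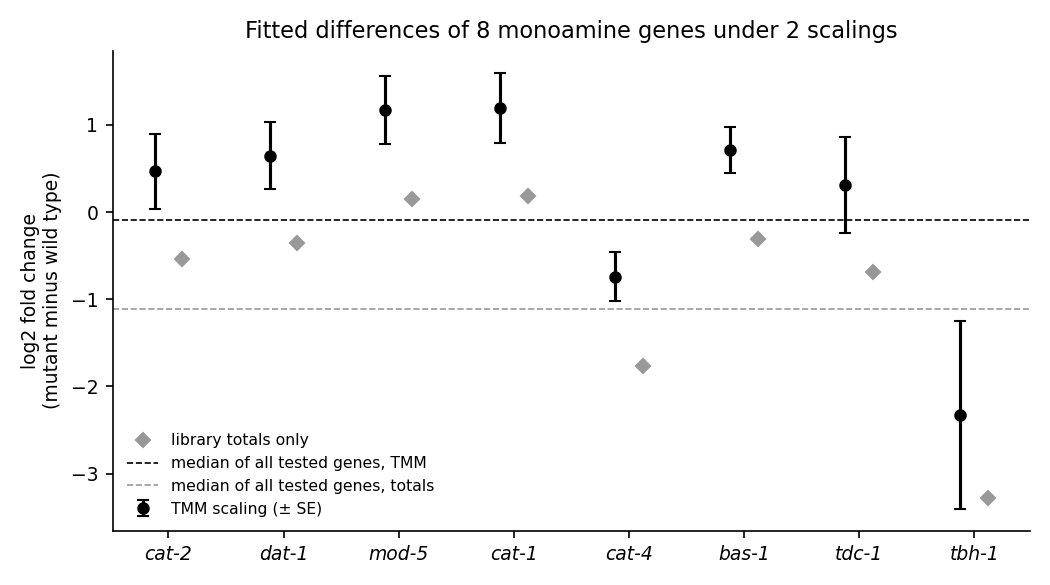
Fitted log2 fold changes (mutant minus wild type) of the 8 tested genes with TMM scaling (black, bars ± SE) and with library totals only (grey), and the median of all tested genes under each scaling (dashed). Every estimate moved down by about as much as the median did, from -0.10 to -1.11, so that positions relative to the other genes were kept.

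The shift between scalings was common to the tested genes, so each estimate was also set against the median of all genes. cat-1 stood 1.29 above that median under TMM and 1.29 above it under totals (log2 fold change), and mod-5 1.27 and 1.25 above. cat-4 stood at -0.65 relative to it under TMM and at -0.66 under totals. tbh-1 stood at -2.23 and -2.17, and only 4.78% of tested genes had a lower log2 fold change. bas-1, dat-1, cat-2 and tdc-1 lay above the median under both scalings, by 0.40 to 0.81 under TMM.

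Measured against the pan-neuronal genes of the same library, which removes library scaling, the order was alike. The log2 count of cat-1 relative to the mean of the 20 pan-neuronal genes was higher in the mutant by 1.27, that of mod-5 by 1.25, that of bas-1 by 0.75 and that of dat-1 by 0.74, without overlap of the groups. For cat-4 the difference was -0.69, also without overlap. The share of all genes without overlap was not computed on this measure. Under TMM scaling 24.4% of all genes lay wholly above and 28.2% wholly below. cat-2, tdc-1, tph-1 and tbh-1 overlapped, with differences of 0.49, 0.23, -1.21 and -3.18. In the edgeR fit with pan-neuronal genes held constant, mod-5 passed and cat-1 did not (edgeR adjusted p = 0.0435 and 0.0523). Of the pan-neuronal genes themselves, 5 rose, 4 fell and 11 did not pass, where 17.1% of all genes rose and 20.9% fell. snb-1, egl-3, egl-21 and ida-1 rose with snn-1, and unc-13, snt-1, unc-104 and maco-1 fell. Their median log2 fold change was -0.41, whereas their summed level was 883 to 1123 CPM in the mutant and 464 to 527 CPM in wild type. The sum rests mostly on the neuropeptide processing genes egl-21 and egl-3, the synaptobrevin gene snb-1 and the dense core vesicle gene ida-1.

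Per kilobase of exons, the 9 genes fell into a high and a low set in wild type. cat-4 was highest at 38.7 ± 11.4 CPM per kb, followed by tdc-1 at 20.3 ± 10.97, tbh-1 at 19.5 ± 12.8 and bas-1 at 13.97 ± 3.84 (SD, n = 3). These neighbours overlapped in their library values. dat-1, mod-5, cat-1 and cat-2 followed at 0.821 ± 0.307, 0.644 ± 0.266, 0.594 ± 0.218 and 0.369 ± 0.117 CPM per kb, each within the spread of the next, and tph-1 was lowest at 0.151 ± 0.0291. In the mutant tdc-1 (25.1 ± 17.8), cat-4 (23.2 ± 2.93) and bas-1 (22.8 ± 2.82) overlapped at the top, and tbh-1 was at 10.1, 0.831 and 0.694 CPM per kb, the last 2 values within the range of the low set. Of the summed per-length level of the 9 genes, tbh-1 held 27.2%, 11.8% and 18.2% in wild type replicates 1 to 3 and 9.96%, 1.22% and 0.999% in the mutant, a share that no library scaling affects.

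Ratios of counts within a library were compared for 6 gene pairs, by the exact two-sided permutation test over the 6 libraries, which cannot give a p under 0.1. The largest difference was in tbh-1 relative to tdc-1, the octopamine step against the tyramine step. The log2 ratio was -2.36, -4.35 and -4.55 in the mutant libraries against -0.16, -1.08 and 0.21 in N2. The groups did not overlap, mutant library 1 included, and the mean differed by -3.41, a 10.6-fold lower ratio in the mutant (exact permutation p = 0.1, the smallest possible; adjusted p = 0.3 over 6 pairs). The share of all gene pairs without overlap was not computed. Of single genes under TMM scaling, 24.4% lay wholly above and 28.2% wholly below.

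bas-1 relative to cat-4 was 0.75, 1.11 and 0.62 in the mutant and -1.12, 0.37 and -1.07 in wild type, without overlap (difference 1.43; exact permutation p = 0.1, adjusted p = 0.3). Here too the share of all gene pairs without overlap was not computed. The remaining pairs overlapped. dat-1 relative to cat-2 differed by 0.25 (exact permutation p = 0.5, adjusted p = 0.6) and cat-2 relative to tdc-1 by 0.26 (exact permutation p = 0.7, adjusted p = 0.7). tph-1 relative to cat-2 and mod-5 relative to tph-1 differed by -1.70 and 2.46 (exact permutation p = 0.2 and adjusted p = 0.3 each), on tph-1 counts of 0 to 11. None of the 6 pairs could reach 0.05 in this design.

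**Figure D3:**
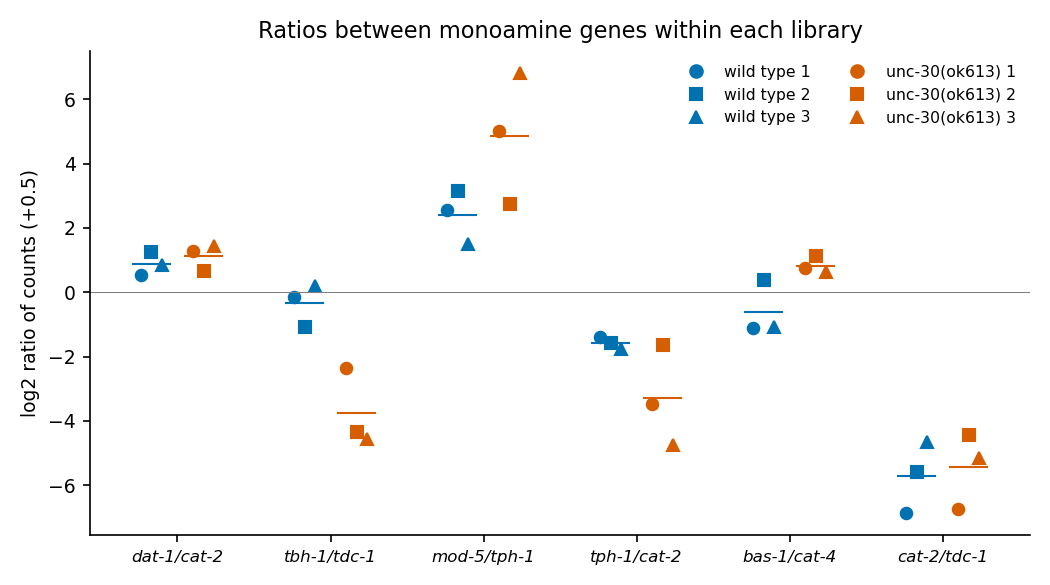
Log2 ratio of counts (0.5 added) for 6 gene pairs in each wild-type (blue) and mutant (orange) library, with lines for group means. tbh-1/tdc-1 and bas-1/cat-4 do not overlap between the genotypes, and the other 4 pairs do. The share of all gene pairs without overlap was not computed.

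Markers of other tissues and of developmental timing were summed in the same libraries. Calls among them stand beside 17.1% of all tested genes higher and 20.9% lower in the main edgeR fit. The 4 gonadal sheath markers lim-7, ceh-18, inx-8 and inx-9 were all detected, with log2 fold changes of -0.42 to -0.68, and 0 of 4 passed (edgeR; 1 was lower at an unadjusted p under 0.05, and DESeq2 and limma-voom called 0). Their summed level was 42.0 to 49.5 CPM in the mutant and 61.8 to 75.1 CPM in wild type. The 6 vitellogenin yolk genes, which intestine cells of adults express, summed to 12104, 760 and 899 CPM in the mutant libraries against 25550, 6923 and 12009 CPM in N2. Of these 6, 0 passed in edgeR (0 at an unadjusted p under 0.05; DESeq2 called 0 and limma-voom 4 lower). Without mutant library 1, however, all 6 were called lower and their median log2 fold change went from -2.20 to -4.73. In that fit 2807 of 15086 tested genes were called higher and 3168 lower. tbh-1 was lowest in the same 2 mutant libraries and highest in the same wild-type library as the yolk genes.

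The 6 molting genes summed to 955, 1969 and 1965 CPM in the mutant against 207, 870 and 177 CPM in N2, so that the groups did not overlap. Of these 6, 0 passed in edgeR, while 5 were higher at an unadjusted p under 0.05 and DESeq2 and limma-voom called 5 and 4 higher. Of 4 epidermis markers, the cuticle collagen genes dpy-7 and rol-6 rose, while dpy-13 and the GATA factor gene elt-3 stood at 2.17 and -0.19 (log2 fold change) without passing. Their sum of 3619 to 6886 CPM in the mutant and 265 to 2678 CPM in N2 is mostly dpy-13. No epidermis marker (0 of 4) passed when mutant library 2 or 3 or N2 library 1 or 3 was left out. Without N2 library 2, 3 epidermis and 5 molting genes rose, and 2 and 1 molting genes did without mutant library 1 and without N2 library 1. Of all tested genes 17.1% rose in the main fit. Without N2 library 2, mutant library 1 and N2 library 1, 2897 of 14933, 2807 of 15086 and 1942 of 14609 genes rose.

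Beside cat-1 and mod-5, some muscle markers also rose in the mutant, where 17.1% of all tested genes rose and 20.9% fell. Of 4 body wall muscle genes, myo-3, unc-54 and unc-15 rose and unc-22 fell, and their sum was 10652 to 15729 CPM in the mutant and 3818 to 6686 CPM in N2. Of 3 pharyngeal muscle genes, myo-2 and tnc-2 rose, with a sum of 308 to 511 CPM against 182 to 255 CPM. Of 3 intestine genes act-5 rose, and of 6 sperm genes spe-9, spe-11 and spe-41 fell. Leaving out 1 library gave 2 to 3 body wall muscle genes higher, 0 pharyngeal genes without mutant library 3 or N2 library 3, 0 to 2 intestine genes, and 2 to 4 sperm genes lower; the unc-22 call held only without N2 library 2. Over all genes, leaving out 1 library gave 1359 to 2897 higher and 1424 to 3257 lower, of 14597 to 15086 tested. Scaled by totals, none of these muscle and intestine genes was called higher, beside 3.43% of all genes. The part of any of these marker differences in the values of the monoamine genes was not tested.

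**Figure D4:**
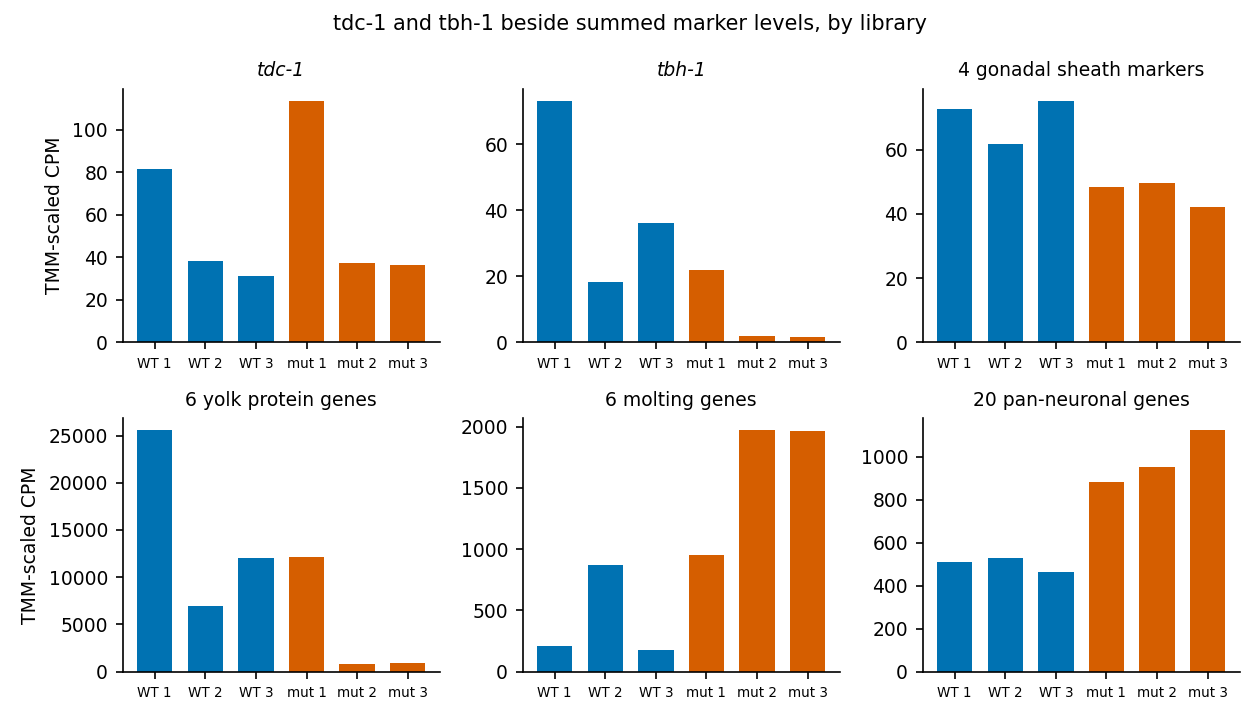
TMM-scaled CPM of tdc-1 and tbh-1, and summed TMM-scaled CPM of 4 marker lists, in each wild-type (WT, blue) and mutant (mut, orange) library. Each panel has its own axis from 0. Mutant replicates 2 and 3 have the lowest tbh-1 (1.81 and 1.51 CPM) and the lowest yolk gene sums (760 and 899 CPM).

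The genes with the most alike pattern were found by the root mean square difference of log2 CPM, each gene centred on its own mean over the 6 libraries, among 14505 others. For cat-2 these were F16H6.7 (0.0793), gst-11 (0.118) and F53H4.4 (0.131). For tdc-1 they were mom-2, which encodes a Wnt ligand (0.123), pigv-1 (0.132) and kca-1 (0.141). tph-1 was not tested and has none. For the 2 genes that rose, the nearest were named after their values were seen. They were mup-2, the muscle troponin T gene (0.0891), ctsa-1.2 (0.0893) and tth-1 (0.118) for cat-1. For mod-5 they were Y55F3AR.2 (0.0931), pde-3 (0.109) and arrd-19 (0.111). cat-2 had 13 to 39 counts a library, cat-1 27 to 46 and mod-5 32 to 63, where counting error can exceed these differences. Which genes were nearest to them may thus rest on noise, and a shared tissue was not tested. Among the monoamine genes, cat-1 and dat-1 were closest, at 0.293, and dat-1 and bas-1 next, at 0.322. tbh-1 differed from each of the other 7 by 1.84 or more.

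Of 20 listed monoamine receptor genes 19 were tested, of which 0 rose, 2 fell and 17 did not pass. Both shares are under those of all genes, 17.1% higher and 20.9% lower, and the part of low counts in this was not tested. The 2 that fell, ser-3 and octr-1, encode octopamine receptors. The list had a median log2 fold change of -0.11 beside -0.10 over all genes. At an unadjusted edgeR p under 0.05, 1 was higher, and DESeq2 and limma-voom called 1 and 0 higher. ser-3 was at 0.900, 1.23 and 1.21 CPM in the mutant and at 3.59, 3.50 and 5.51 CPM in wild type, and fell 3.76-fold (log2 fold change -1.91 ± 0.36, SE; edgeR adjusted p = 0.00573). This call held under each of the 16 alternatives run. octr-1 was at 0.579, 0.409 and 0.606 CPM against 1.30, 1.28 and 1.60 CPM and fell 2.62-fold (edgeR adjusted p = 0.0252). These levels of octr-1 rest on only 9, 7 and 8 counts in the mutant libraries and on 51, 31 and 51 in N2. Leaving out any library other than N2 library 2 ended its call, with log2 fold changes of -1.16 to -1.44 (edgeR adjusted p = 0.0533 to 0.131). ser-6, a further octopamine receptor gene named after its values were seen, stood at -0.81 on the log2 scale (edgeR adjusted p = 0.249). Scaled by totals, 0 receptors rose and 11 fell, beside 3.43% and 56.4% of all genes. Their median was then -1.15, beside -1.11 over all genes.

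The list of biopterin cofactor and related hydroxylase genes holds cofactor synthesis and recycling genes and also the cofactor-using enzyme genes pah-1 and agmo-1. Of 5 tested genes 2 rose and 0 fell, beside 17.1% and 20.9% of all genes, and no tool called one lower, nor was one lower at an unadjusted edgeR p under 0.05 (count 0). pcbd-1, a pterin carbinolamine dehydratase gene, rose 2.35-fold, from 17.96 ± 5.44 to 42.2 ± 4.74 CPM (SD, n = 3; edgeR adjusted p = 0.00971). qdpr-1, a dihydropteridine reductase gene, rose 2.08-fold, from 56.4 ± 6.14 to 117 ± 22.3 CPM (SD, n = 3; edgeR adjusted p = 0.00794). Both calls held without any single library. With scaling by totals, however, their log2 fold changes were 0.20 and 0.03, without passing. There 2 other members of the list were called lower, beside 56.4% of all genes. ptps-1, which acts just after CAT-4 in cofactor synthesis, had a log2 fold change of 0.05.

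Of 6 tested breakdown genes, 2 rose, 1 fell and 3 did not pass, beside all-gene shares of 17.1% and 20.9%. With 6 genes these counts are too few to set apart from those shares. comt-3 and comt-5, of the catechol-O-methyltransferase family, rose 2.70-fold and 2.13-fold (edgeR adjusted p = 0.0231 and 0.0390). amx-1, a monoamine oxidase family gene, fell 2.04-fold (edgeR adjusted p = 0.0345), and its relatives amx-2 and amx-3 had log2 fold changes of -0.89 and -0.96 without passing. These calls were fragile. That of comt-3 ended on leaving out mutant library 2 or 3 or N2 library 1 or 3 (log2 fold change 1.197 to 1.39), that of comt-5 on leaving out any library but mutant library 1 (1.02 to 1.18), and that of amx-1 on leaving out mutant library 2 or 3 or N2 library 1 or 2 (-0.84 to -1.02). Scaled by totals, 0 rose and 3 fell, beside 3.43% and 56.4% of all genes. With length trends removed amx-1 did not pass (-0.60).

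Of the 3 decarboxylase relatives, 2 fell and 0 rose, beside 20.9% and 17.1% of all genes, and 0 were higher at an unadjusted edgeR p under 0.05 or by DESeq2 or limma-voom. hdl-1 was at 3.67, 0.585 and 0.833 CPM in the mutant and at 9.20, 8.14 and 14.4 CPM in wild type, a 6.22-fold fall (edgeR adjusted p = 0.0172). Without mutant replicate 1 its log2 fold change went from -2.64 to -3.83, and leaving out mutant library 3 (-2.25, edgeR adjusted p = 0.0686) or N2 library 3 (-2.35, edgeR adjusted p = 0.0573) ended its call. hdl-2 fell 4.10-fold, from 9.99 ± 3.10 to 2.43 ± 0.553 CPM (SD, n = 3; edgeR adjusted p = 0.00417), under each of the 16 alternatives. Reads of such relatives may be shared where their sequences are alike.

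Transcription factor genes known from the specification of these neurons mostly did not pass. Of 11 tested, 1 rose and 0 fell, beside all-gene shares of 17.1% and 20.9%, and the median log2 fold change was 0.75. With 11 genes these counts are too few to set apart from those shares. At an unadjusted edgeR p under 0.05, 4 were higher and 0 lower. DESeq2 and limma-voom each called 1 higher and 0 lower. With length trends removed 3 rose, beside 3033 of all 14506 tested genes. zag-1, a zinc finger homeodomain factor gene, rose 3.61-fold, from 3.28 ± 1.61 to 11.8 ± 3.12 CPM (SD, n = 3; edgeR adjusted p = 0.0105), also without any single library. Scaled by totals its log2 fold change was 0.83 (edgeR adjusted p = 0.0949) and the median of the list was -0.28, beside -1.11 over all genes. ast-1 and ceh-43, factors of the dopamine neurons, had log2 fold changes of 0.81 and 0.82 without passing.

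**Figure D5:**
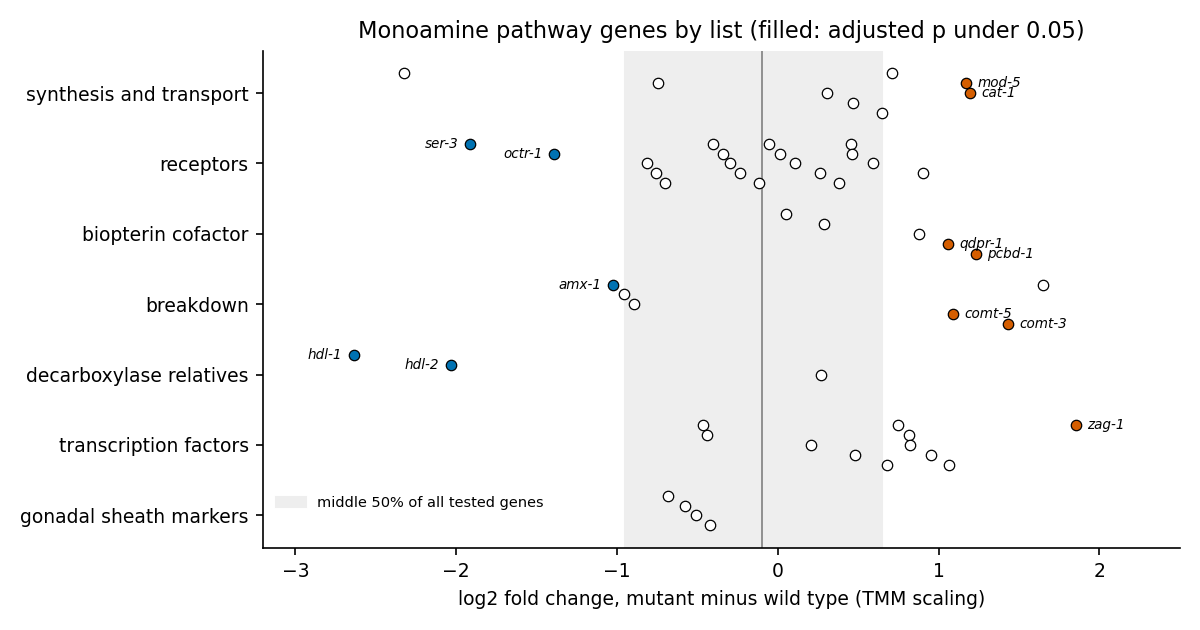
Fitted log2 fold change (x axis, TMM scaling) of each tested gene, by list; orange and blue points passed as higher and lower, and open points did not pass. The grey band holds the middle 50% of all tested genes and the line their median of -0.10. ser-3 and octr-1 lie left of the band, and cat-1 and mod-5 right of it.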

How the data were processed

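The authors deposited a table of raw, unnormalized counts for each library, keyed by WormBase identifier. HTSeq and DESeq2 are the tools named per the submitters' processing notes. No source used here gives the aligner, genome build, annotation, strand setting or versions. Positions, exonic lengths and symbols come from Ensembl release 115 of WBcel235, matched by identifier; 1 listed symbol had no match. The labels do not state separate cultures for the replicates; p-values therefore reflect only how these samples scatter, possibly for technical reasons. Replicate pairs differed by 31.9 to 255 in chi-square per degree of freedom over genes, far above sampling noise.

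All genes were fitted with edgeR 4.0.16 in R 4.3.3 (quasi-likelihood F-test, TMM factors of 0.654 to 1.49, default expression filter, robust fit, group as the only term, Benjamini-Hochberg adjustment over all tested genes, threshold 0.05). Standard errors were derived from the F statistic. The floor used is 3 counts, 0.0765 to 0.227 CPM, and intervals and floors cover counting error only. Ratios used 0.5 added to each count. Alternatives included DESeq2 1.42.0, limma-voom 3.58.1, other scalings, a replicate block and leaving out each library. The fit was tested on simulated data. The members and lists were chosen with earlier results of these data known. All 9 members are named. Related lists are represented by up to 2 largest rises and 2 largest falls past the threshold, and alike patterns by the 3 nearest genes of cat-2, tph-1 and tdc-1. Sequences were not used here.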

Additional observations from a re-analysis of the deposited data

How the results depend on the processing

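With scaling by library totals, 0 monoamine genes were called higher and 2 lower, and 0 and 19 of the related genes, in place of 2, 0, 5 and 5. cat-2, tdc-1, bas-1 and dat-1 turned there to log2 fold changes of -0.53, -0.68, -0.31 and -0.35. Of the monoamine genes, 1 (mod-5) was called higher with upper-quartile factors, with pan-neuronal genes held constant and without an expression filter. By limma-voom 1 (tbh-1) was called lower. Related genes called higher numbered 8 with length trends removed, and those called lower 3 without a filter. Leaving out 1 library gave 0 to 3 monoamine genes higher and 0 to 1 lower, 3 to 7 related genes higher and 2 to 5 lower. tdc-1 then ranged from -0.38 to 0.84 and the cat-2/tdc-1 difference from -0.32 to 0.90, with -0.25 without mutant replicate 2. Over all genes, 2476 were called higher and 3035 lower, against 498 and 8175 with totals and 1402 and 1424, 1359 and 1432, and 1584 and 1882 without mutant library 2, mutant library 3 and wild-type library 3. The cause of these differences was not tested. Directions of the other 5 ratios and of cat-1, cat-4, mod-5 and tbh-1 were kept under every alternative run. Depth limits tph-1 most.

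With the replicate number as a block, 3 monoamine genes were called higher and 2 lower (bas-1 at 0.73, cat-4 at -0.70 and tbh-1 at -3.07 in addition), and ratio differences are the same by construction. Deviations of same-numbered libraries correlated at 0.44, 0.41 and -0.06 over genes, so the numbers were not taken to pair the samples; mutant replicate 3 correlated best with wild type replicate 2.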
